A study of Mus musculus with 9 samples.

Results

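The 7 CDK inhibitor genes of the mouse, Cdkn2a, Cdkn2b, Cdkn2c and Cdkn2d of the INK4 family and Cdkn1a, Cdkn1b and Cdkn1c of the CIP/KIP family, were read in the peak lists of a MYCN-driven T-cell lymphoma, among 21887 protein-coding genes on the autosomes, X and Y. They were chosen by name, and Cdkn2a and Cdkn2b, which lie next to each other on chromosome 4, were also read as 1 domain. The material was thymic lymphoma cells of C57BL/6J mice, and all samples shared this strain, tissue and lymphoma. Chromatin was profiled by ChIPmentation, in which a transposase adds the sequencing adapters while the chromatin is bound to the antibody. The series held 9 samples, which were 7 immunoprecipitations (EZH2, SUZ12, H3K27me3, N-MYC, p300, H3K27ac and H3K4me3) with 1 library per antibody, and 2 input libraries that were not analysed here. The labels do not name the construct that carries MYCN, the age of the animals or the animal behind each immunoprecipitation, and there was no normal thymus for comparison.

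INK4 proteins (p16, p15, p18 and p19INK4D) bind the kinases CDK4 and CDK6 and keep them from cyclin D, whereas CIP/KIP proteins (p21, p27 and p57) bind complexes of cyclin and kinase, among them cyclin E with CDK2. Cdkn2a has a pair of promoters: transcripts from the outer start encode ARF, which binds MDM2 and so protects p53, and transcripts from the inner start encode p16INK4A in another reading frame. This assignment of the starts is textbook knowledge, since the tables used here do not pair transcripts with starts. The Cdkn2a-Cdkn2b locus is a textbook target of the Polycomb repressive complexes, in which EZH2 is the methyltransferase of complex PRC2, SUZ12 a core subunit and H3K27me3 the mark it writes. H3K4me3 marks promoters, H3K27ac marks active promoters and enhancers, and p300 is an acetyltransferase that writes H3K27ac. MYC proteins are known to raise ARF in normal cells and to repress Cdkn2b and Cdkn1a together with the factor MIZ1.

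In RefSeq (GRCm38.p6), Cdkn2a lies at chr4:89274473-89294619, Cdkn2b at chr4:89306289-89311032, Cdkn2c at chr4:109660876-109666756 and Cdkn2d at chr9:21288459-21291421, all on the minus strand. Cdkn1a lies at chr17:29090979-29100722 and Cdkn1b at chr6:134920401-134925525, both on the plus strand, and Cdkn1c at chr7:143458339-143461059. RefSeq listed 9 starts for 6 of the genes. No start was listed for Cdkn1c, which was read at both outer ends, as were all other protein-coding genes without a listed start. A gene was called for an antibody when a peak overlapped the 1 kb to either side of a start. Fold enrichment is the authors' linear ratio of a peak over the background, and peak positions are on mm10, which is GRCm38, counted from 1. Each antibody had 1 library, so the spread between samples is unknown and p-values are not given. A peak that is missing from a list was not called, which does not show that the protein or mark was absent. The libraries were made from many cells, so marks that share a chromosome copy and marks that lie in different cells cannot be told apart.

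The promoter sequences (RefSeq, GRCm38.p6, 250 bases before to 50 bases after the start, 5′ to 3′ on the strand of the gene) of 6 of the starts are shown so that starts with an N-MYC peak (outer Cdkn2a, Cdkn2d and Cdkn1b) can be read beside starts without one. Capitals mark CACGTG, the E-box bound by MYC and MAX, its variant CACGCG, which reads CGCGTG on the other strand, and in the Cdkn1a promoter a match to the p53 consensus. The outer Cdkn2c start, not shown, also had an N-MYC peak, and its promoter held neither CACGTG nor CACGCG.
Cdkn2a outer start (ARF), chr4:89294570-89294869, minus strand: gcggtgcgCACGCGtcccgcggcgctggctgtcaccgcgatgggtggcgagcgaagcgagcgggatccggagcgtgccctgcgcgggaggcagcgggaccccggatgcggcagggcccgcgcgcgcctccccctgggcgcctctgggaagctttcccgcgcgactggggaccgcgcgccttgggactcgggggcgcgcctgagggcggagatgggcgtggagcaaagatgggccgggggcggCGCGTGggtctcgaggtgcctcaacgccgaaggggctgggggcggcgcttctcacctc
Cdkn2a inner start (p16INK4A), chr4:89282143-89282442, minus strand: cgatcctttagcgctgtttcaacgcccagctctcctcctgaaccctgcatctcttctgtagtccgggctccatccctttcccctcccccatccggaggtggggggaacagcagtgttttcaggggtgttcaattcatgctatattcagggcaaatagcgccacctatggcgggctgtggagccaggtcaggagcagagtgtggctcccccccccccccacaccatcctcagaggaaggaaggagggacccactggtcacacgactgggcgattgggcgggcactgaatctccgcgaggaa
Cdkn2c inner start, chr4:109665323-109665622, minus strand: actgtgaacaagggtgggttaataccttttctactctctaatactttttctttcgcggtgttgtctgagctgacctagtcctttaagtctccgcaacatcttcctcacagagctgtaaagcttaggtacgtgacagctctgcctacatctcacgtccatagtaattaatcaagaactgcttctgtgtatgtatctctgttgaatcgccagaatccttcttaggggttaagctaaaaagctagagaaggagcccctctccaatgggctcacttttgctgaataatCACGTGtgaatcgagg
Cdkn2d start, chr9:21291160-21291459, minus strand: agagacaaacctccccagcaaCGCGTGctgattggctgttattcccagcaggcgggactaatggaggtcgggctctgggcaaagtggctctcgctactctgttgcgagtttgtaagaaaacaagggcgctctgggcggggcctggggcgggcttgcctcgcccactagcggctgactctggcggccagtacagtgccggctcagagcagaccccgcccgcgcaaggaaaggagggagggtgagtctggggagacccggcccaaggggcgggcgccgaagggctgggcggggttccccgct
Cdkn1b start, chr6:134920151-134920450, plus strand: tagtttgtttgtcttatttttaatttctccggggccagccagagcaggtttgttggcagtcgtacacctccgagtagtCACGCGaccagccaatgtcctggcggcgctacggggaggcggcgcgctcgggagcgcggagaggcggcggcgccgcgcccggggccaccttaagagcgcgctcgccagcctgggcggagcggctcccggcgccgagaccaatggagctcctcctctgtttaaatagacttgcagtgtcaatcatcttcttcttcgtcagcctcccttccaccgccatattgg
Cdkn1a outer start, chr17:29090729-29091028, plus strand: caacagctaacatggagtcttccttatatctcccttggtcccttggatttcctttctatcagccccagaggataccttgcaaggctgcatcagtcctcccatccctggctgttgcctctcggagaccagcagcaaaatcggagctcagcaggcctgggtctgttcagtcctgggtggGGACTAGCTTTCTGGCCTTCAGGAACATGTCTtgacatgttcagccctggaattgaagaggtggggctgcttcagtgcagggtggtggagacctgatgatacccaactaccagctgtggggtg

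All 7 genes had an EZH2 peak at a start, where 45.8% of all protein-coding genes had one. The genes divided by what lay beside EZH2. Cdkn2c, Cdkn2d and Cdkn1b carried EZH2 beside the 4 lists of the active state (H3K4me3, H3K27ac, p300 and N-MYC) but no SUZ12 and no H3K27me3, a combination of exactly 5 lists that 24.4% of genes shared. Cdkn2b, Cdkn1a and Cdkn1c carried EZH2 with SUZ12 and H3K27me3 and without N-MYC or p300 at a start. Cdkn2a was the 1 gene of the 7 with a peak of every list, as 0.809% of genes had, and the 4 lists called at Cdkn2b (EZH2, SUZ12, H3K27me3 and H3K4me3) were the exact combination of 1.83% of genes.

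By list, SUZ12 was called at 4 of the 7 genes (13.7% of all genes) and H3K27me3 at the same 4 genes, Cdkn2a, Cdkn2b, Cdkn1a and Cdkn1c (25.8% of all genes). N-MYC was called at 4, Cdkn2a, Cdkn2c, Cdkn2d and Cdkn1b (32.9% of all genes), and p300 at the same 4 (39.3% of all genes). H3K27ac was called at 5 of the 7 (51.6% of all genes), the additional gene being Cdkn1a. H3K4me3 was called at 6 of the 7 (51.0% of all genes), Cdkn1c being the exception. EZH2, SUZ12 and H3K27me3 were called together at 4 genes (12.6% of all genes), and N-MYC, SUZ12 and H3K27me3 together at 1, Cdkn2a (1.48% of all genes). H3K4me3 and H3K27me3 were called together at 3 genes, Cdkn2a, Cdkn2b and Cdkn1a (7.82% of all genes). EZH2 and N-MYC without either H3K27me3 or SUZ12 were found at 3 genes (25.0% of all genes). Leaving out Cdkn1c and all other genes without a listed start, the remaining 6 genes had H3K4me3 6 times (52.1% of such genes), H3K27ac 5 times (52.2%), p300 4 times (40.6%), N-MYC 4 times (34.0%), EZH2 6 times (46.0%), SUZ12 3 times (12.8%) and H3K27me3 3 times (24.3%). With 7 genes, these counts are descriptions, and the members were not tested against other genes.

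**Figure D1:**
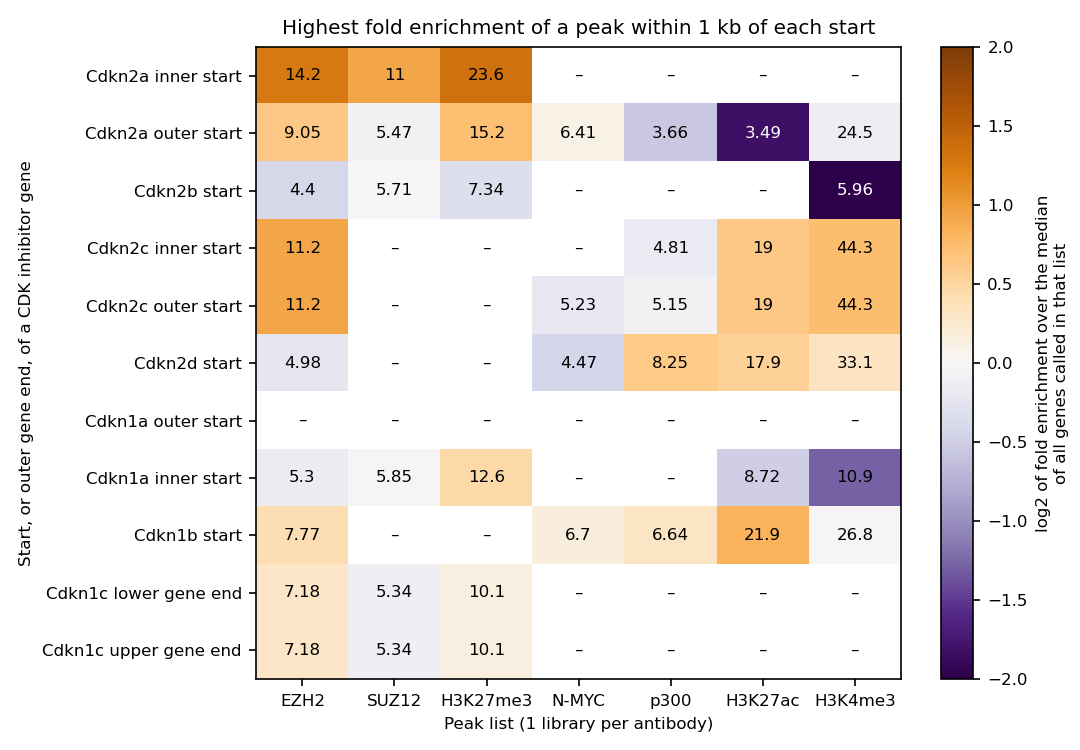
Highest fold enrichment of a peak within 1 kb of each of the 9 listed starts and of both ends of Cdkn1c (rows) in the 7 lists (columns), printed in each cell, with the colour giving its log2 ratio to the median of all genes called in that list and a dash where no peak was called. SUZ12 and H3K27me3 fill the Cdkn2a, Cdkn2b, Cdkn1c and inner Cdkn1a rows, N-MYC fills the outer Cdkn2a, outer Cdkn2c, Cdkn2d and Cdkn1b rows, and the outer Cdkn1a row is empty.

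The Cdkn2a-Cdkn2b domain, from chr4:89273473-89312032 (38.6 kb with 1 kb on either side of the genes), lay almost wholly under H3K27me3. Its 7 H3K27me3 peaks covered 97.1% of the bases, 15 SUZ12 peaks covered 71.1% and 19 EZH2 peaks covered 56.4%. The active lists met it in few places: H3K4me3 had 2 peaks covering 8.62%, and N-MYC, p300 and H3K27ac had 1 peak each, covering 1.52%, 1.18% and 1.22%. When peaks within 3 kb of each other were joined, H3K27me3 formed a single block of 64.9 kb from 26 peaks, from chr4:89251359-89316220, which ranked 188 by length among 24143 such blocks. Joined SUZ12 peaks formed a block of 27.3 kb over Cdkn2a (rank 41 of 4261) and another of 9.08 kb over Cdkn2b. Joined EZH2 peaks formed blocks of 24.1 kb (rank 46 of 11046) and 8.03 kb over the same genes. Joined H3K27me3 peaks thus formed a single block where those of both PRC2 subunits did not. In the 11.7 kb between the genes H3K27me3 covered 96.8% of bases, SUZ12 46.8% and EZH2 34.2%. The H3K27me3 list also covers more of the genome, 111.63 Mb against 15.18 Mb for SUZ12 and 18.43 Mb for EZH2. The part of this in the difference was not tested.

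The strongest Polycomb peaks of the domain lay over the part of Cdkn2a from the inner start to the gene's 3′ end, which transcripts from both starts cross. There, 1 EZH2 peak of 10965 bases (chr4:89272426-89283390) had a fold enrichment of 14.2, 1 SUZ12 peak of 13388 bases reached 11, and 1 H3K27me3 peak of 14650 bases reached 23.6. Their summits lay 5994, 5527 and 5080 bases downstream of the inner start, so the values belong to the body of the gene more than to the start. Among all genes called in each list, 98.4% had a lower highest fold enrichment of EZH2 at a start, 90.4% of SUZ12 and 99.2% of H3K27me3. The inner start itself lay under all 3 peaks, which filled its whole window, and none of the 4 active lists had a peak there.

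At the outer start all 7 lists had a peak. A peak of all 7 lists at the same start was found for 0.699% of protein-coding genes (153 genes). Polycomb peaks were present but lower than at the inner start, with a fold enrichment of 9.05 for EZH2 (a peak of 1499 bases), 5.47 for SUZ12 and 15.2 for H3K27me3, the last from a peak of 12555 bases whose summit lay 5247 bases into the gene. H3K4me3 reached 24.5, near the median of 26.5 over called genes, and N-MYC reached 6.41 against a median of 6.00. H3K27ac and p300 were weak: H3K27ac had a fold enrichment of 3.49, with 2.84% of called genes below it, and p300 had 3.66, with 7.90% below it. The summits of EZH2, N-MYC and p300 lay 210, 162 and 117 bases upstream of the start, with 48 bases between EZH2 and N-MYC and 45 between N-MYC and p300.

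The H3K27ac and p300 peaks at the outer start had a −log10 q of 4.83 and 4.44, and their fold enrichments were below the medians of all peaks in their lists (4.04 and 4.34). Neither call remained at a q-value of at most 1e-05, at a fold enrichment of at least 4 or with every list limited to the 9798 most significant peaks. EZH2, SUZ12, H3K27me3 and H3K4me3 were called at Cdkn2a under each of these 3 changes, counted at either start. H3K4me3 had its peak at the outer start alone. The EZH2, SUZ12 and H3K27me3 peaks at the outer start pass both thresholds, with a −log10 q of 21.3, 11.7 and 51.7. Whether these peaks remain under the limit on length was not read apart from the inner start. N-MYC was called under both thresholds, and its list, the shortest, is not changed by the limit on length. The H3K27ac peak did not reach the start, and its summit lay 587 bases upstream of it. The start of Gm12610, a long noncoding RNA gene transcribed in the opposite direction, lies 561 bases from the outer start, and which of these starts the shared peaks belong to cannot be told apart.

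**Figure D2:**
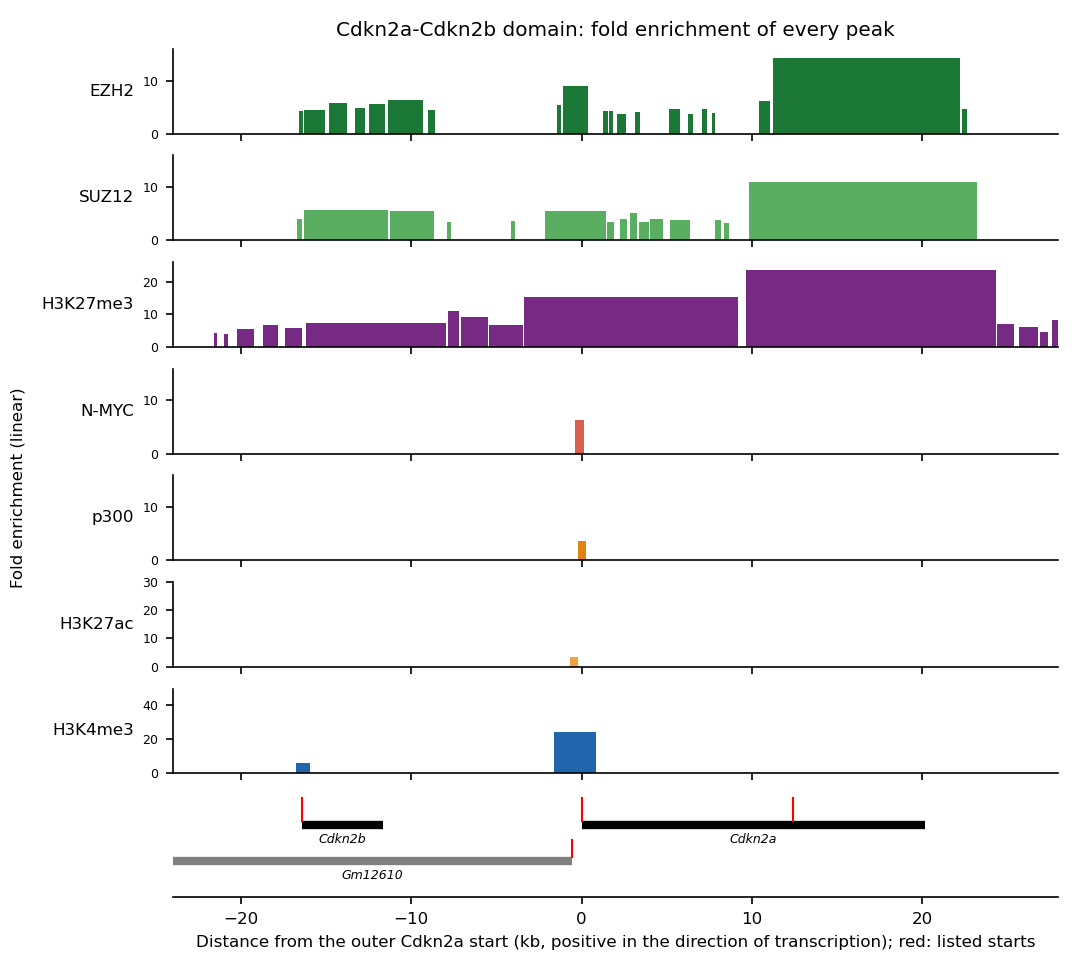
Every peak over the Cdkn2a-Cdkn2b domain, with distance from the outer Cdkn2a start in kb on the x axis (positive in the direction of transcription, from Cdkn2b towards Cdkn2a) and fold enrichment on the linear y axis of each of the 7 tracks, whose scales differ, with bars spanning the width of a peak and red ticks at the listed starts. H3K27me3 runs through the domain, EZH2 and SUZ12 are highest over the inner part of Cdkn2a (14.2 and 11), and N-MYC, p300 and H3K27ac have 1 peak each, at the outer Cdkn2a start.

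Cdkn2b, which encodes p15INK4B, carried weaker Polycomb peaks and a weak H3K4me3 peak. H3K27me3 covered 94.9% of its 4.74 kb, SUZ12 97.5% and EZH2 79.8%, against 97.6, 79.5 and 63.5% of Cdkn2a. Of all protein-coding genes, 30.2% had any H3K27me3 cover, 14.9% any SUZ12 and 47.1% any EZH2. Less cover than at Cdkn2b was found at 97.2, 99.1 and 98.7% of genes, and less than at Cdkn2a at 97.5, 98.6 and 98.2%. The highest fold enrichments of peaks that met the window at its start were 4.40 for EZH2, 5.71 for SUZ12 and 7.34 for H3K27me3. Of called genes, 18.3, 48.4 and 38.4% lay below them. The SUZ12 and H3K27me3 values come from peaks with summits 4694 and 5099 bases downstream of the start, the latter beyond the gene. The SUZ12 and H3K27me3 peaks with summits 131 and 596 bases upstream of the start had 3.99 and 5.74. H3K4me3 reached 5.96 over 849 bases, with 5.89% of called genes below it, and this call was lost in lists of equal length. The start base lay in a gap of 248 bases between H3K27me3 peaks and in a gap of 131 bases between SUZ12 peaks. A narrow EZH2 peak of 251 bases (fold enrichment 4.24) had its summit 1 base from the start, and the H3K4me3 summit lay 99 bases downstream. No N-MYC, p300 or H3K27ac peak was called at the start or over the gene.

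Cdkn1a, which encodes p21, the inhibitor best known as a p53 target, carried both kinds of mark at its inner start and none at its outer one. No list had a peak within 1 kb of the outer start. At the inner start, H3K27me3 had a fold enrichment of 12.6 (70.3% of called genes below it), SUZ12 5.85 and EZH2 5.30. H3K4me3 had 10.9 (13.1% below it) and H3K27ac 8.72 (30.3% below it). EZH2, SUZ12, H3K27ac and H3K4me3 peaks with H3K27me3 and without N-MYC or p300 were the exact combination of 1.35% of genes.

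The marks at Cdkn1a were offset along the gene. The H3K27me3 and SUZ12 summits lay 176 and 289 bases downstream of the inner start, the EZH2 and H3K4me3 summits 767 and 779 bases, and the strongest H3K27ac summit 1129 bases downstream. The EZH2 summit was thus 12 bases from the H3K4me3 summit and 478 bases from the SUZ12 summit. A p300 peak of fold enrichment 4.45 began 1206 bases downstream of the inner start, just outside the window, and was counted with a window of 2 kb. No N-MYC peak was called over the gene. Because the marked start was the inner one, Cdkn1a had no call in any list when 1 outer start per gene was used.

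Cdkn1c, which encodes p57 and is an imprinted gene, had Polycomb peaks and no active mark. H3K27me3 covered all of its 2.72 kb, SUZ12 98.1% and EZH2 70.8%, with fold enrichments of 10.1, 5.34 and 7.18. Less cover was found at 97.8, 99.1 and 98.5% of all genes. The combination of exactly these 3 lists at a start or gene end was held by 7.42% of genes. H3K27me3 peaks went on past both ends, including 1 of 14614 bases with a fold enrichment of 15.3 (chr7:143434449-143449062). Beyond the gene, over the noncoding RNA gene Gm33663, EZH2 (5.12), SUZ12 (5.72) and H3K27me3 (7.45) recurred, with 1 N-MYC peak (3.41) and 2 H3K27ac peaks (3.51 and 3.71) inside the same stretch.

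Cdkn2c, Cdkn2d and Cdkn1b, which encode p18, p19INK4D and p27, had no SUZ12 or H3K27me3 peak at a start or over the gene. At Cdkn2c, an H3K4me3 peak of 6077 bases covered both starts with a fold enrichment of 44.3, above 97.9% of called genes. EZH2 reached 11.2 there, above 95.6% of called genes, with its summit 38 bases from the H3K4me3 summit, and H3K27ac reached 19. N-MYC (5.23) and the stronger p300 peak (5.15) lay at the outer start instead, 78 bases from each other and 1023 and 945 bases from the EZH2 summit. The N-MYC peak ended 32 bases upstream of the outer start, and the nearest N-MYC peak to the inner start was 1416 bases away.

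Cdkn2d lay within a single H3K4me3 peak of 6050 bases (fold enrichment 33.1) and a single H3K27ac peak of 6096 bases (17.9) that also held the start of the neighbouring gene Kri1, 3240 bases away. The H3K27ac summit lay 3508 bases downstream of the Cdkn2d start, beyond the Kri1 start, and the call was lost when the summit had to lie in the window. p300 at the Cdkn2d start was strong (8.25, above 91% of called genes), whereas EZH2 (4.98) and N-MYC (4.47) were below the medians of 5.85 and 6.00. N-MYC was higher near the Kri1 start, at 8.67, than at the Cdkn2d start. The EZH2 summit at Cdkn2d lay 3 bases from the H3K4me3 summit, and the N-MYC summit 41 bases from that of p300.

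Cdkn1b had 1 broad active region at its start, another downstream and weaker peaks upstream. At the start, H3K27ac reached 21.9 (above 89.2% of called genes), EZH2 7.77 (78.6%), p300 6.64, N-MYC 6.70 and H3K4me3 26.8. The EZH2 summit lay 594 bases downstream of the start and 81 bases from the H3K4me3 summit, and the N-MYC summit lay 160 bases downstream of the start. The second region, with H3K4me3 of 23.2, H3K27ac of 20.3, p300 of 6.89, EZH2 of 6.22 and N-MYC of 6.17, lay beyond the 3′ end of the gene, where the noncoding RNA gene Lockd starts 8691 bases from the Cdkn1b start. Upstream, weaker peaks of H3K4me3 (9.13), H3K27ac (6.72) and p300 (3.41) had summits 3389, 3598 and 3511 bases from the start. SUZ12 and H3K27me3 were called in none of these places.

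**Figure D3:**
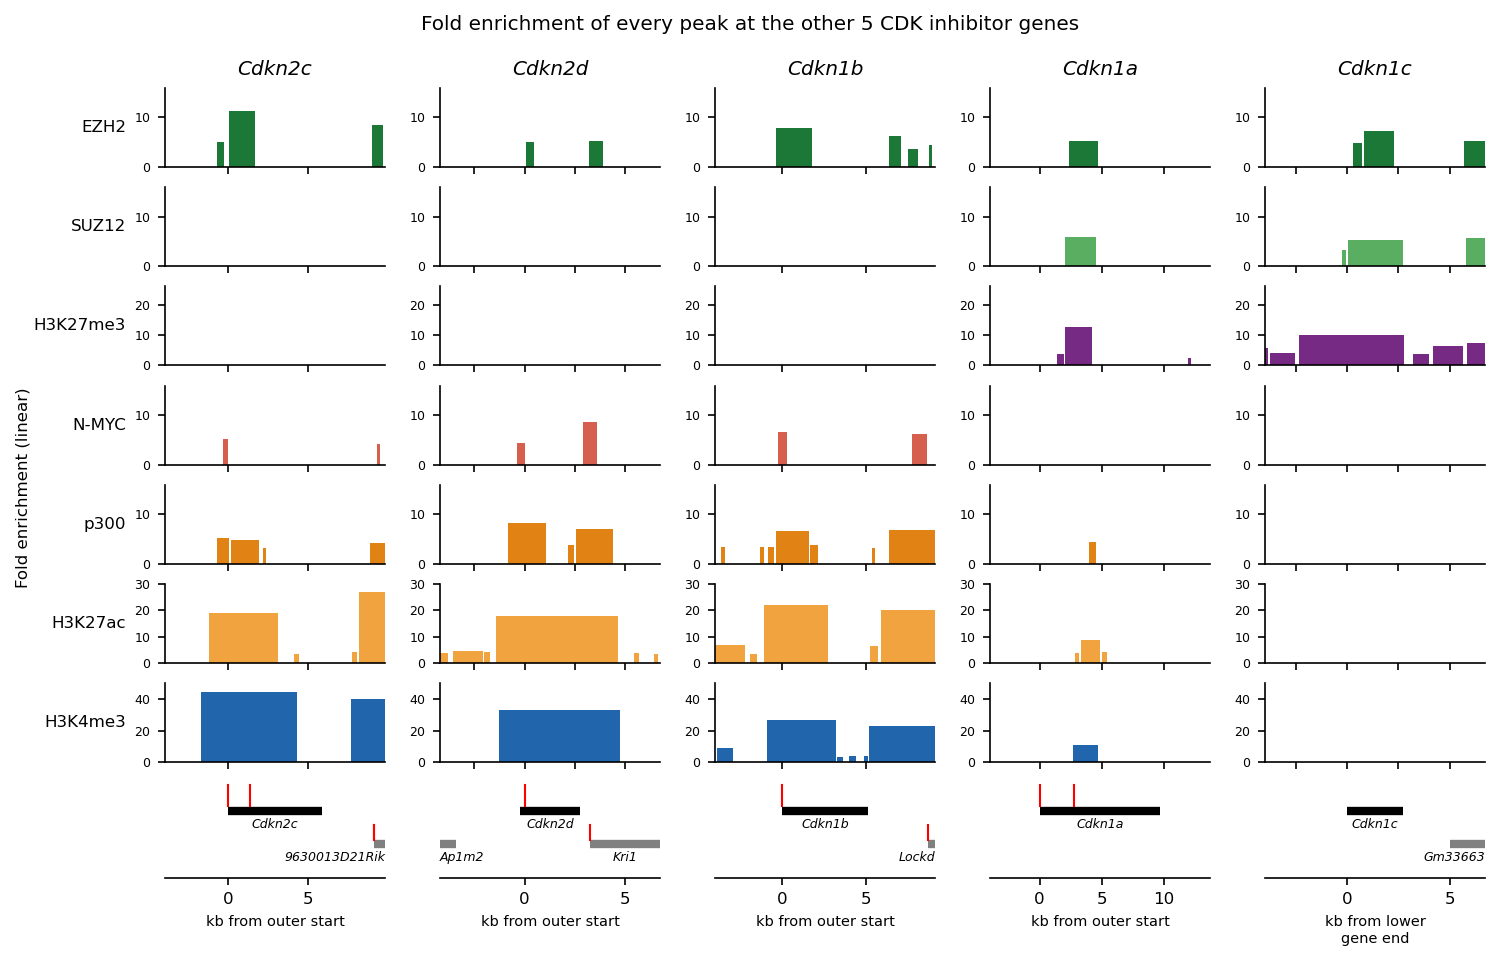
Every peak over Cdkn2c, Cdkn2d, Cdkn1b, Cdkn1a and Cdkn1c and 4 kb on either side, with distance from the outer start (for Cdkn1c, from the lower gene end, since no strand was listed) in kb on the x axis and fold enrichment on the linear y axis of each of the 7 tracks, whose scales differ. The first 3 genes have no SUZ12 or H3K27me3 bars, Cdkn1a has bars of both kinds at its inner start (H3K27me3 12.6, H3K4me3 10.9), and Cdkn1c has EZH2, SUZ12 and H3K27me3 bars with none in the active lists over the gene.

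Across the members, EZH2 did not separate the Polycomb-marked genes from the others. Its highest fold enrichment at a start was 14.2, 7.18, 5.30 and 4.40 at Cdkn2a, Cdkn1c, Cdkn1a and Cdkn2b, which carried SUZ12 and H3K27me3, and 11.2, 7.77 and 4.98 at Cdkn2c, Cdkn1b and Cdkn2d, which did not. The ranges overlap. H3K4me3 ranged from 5.96 to 24.5 at the 3 genes that also carried H3K27me3 and from 26.8 to 44.3 at the 3 without it. The nearest values, 24.5 and 26.8, lay close to the median of 26.5 over all called genes. H3K27ac ranged from 3.49 to 8.72 at 2 genes with H3K27me3 and from 17.9 to 21.9 at the 3 without it. The 17.9 is that of the Cdkn2d peak with its summit near Kri1. Levels over all genes with and without H3K27me3 were not compared, so these ranges describe the members alone. The strongest EZH2 peak at each start lay with its summit 38, 3 and 81 bases from the H3K4me3 summit at Cdkn2c, Cdkn2d and Cdkn1b, 12 bases at the inner Cdkn1a start, 278 at the outer Cdkn2a start and 279 at Cdkn2b. At Cdkn2b, the narrower EZH2 peak of nearly equal fold enrichment (4.24 against 4.40) had its summit nearer to that of H3K4me3. N-MYC, where called, varied little, from 4.47 to 6.70.

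**Figure D4:**
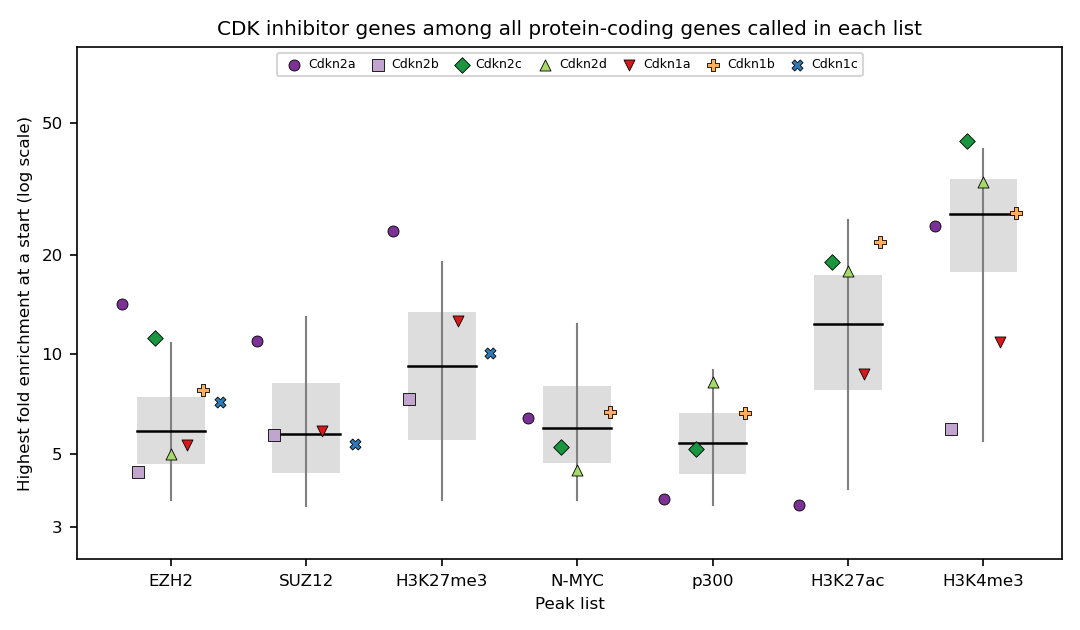
Highest fold enrichment at a start on a log axis for each of the 7 genes (symbols) in each list, over the values of all protein-coding genes called in that list (line, median; box, 25th to 75th percentile; whisker, 5th to 95th percentile). Cdkn2a lies above the box for EZH2, SUZ12 and H3K27me3 (14.2, 11 and 23.6) and below it for p300 and H3K27ac (3.66 and 3.49), whereas Cdkn2c lies above it for H3K4me3 (44.3).

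The promoter sequences printed above differed in their content of CG dinucleotides and of MYC motifs. The outer Cdkn2a promoter held 45 CG dinucleotides in 300 bases, more than 97.5% of the 21263 promoters of protein-coding genes, and the inner one held 12, near the median of 13. The outer Cdkn1a promoter held 2. CACGTG occurred in 1 of the 9 member promoters, that of the inner Cdkn2c start, which had no N-MYC peak within 1 kb. It occurred in 7.84% of all promoters. CACGCG occurred at the outer Cdkn2a start (2 matches), at Cdkn2d and at Cdkn1b. It was thus in 3 of the 4 member promoters with an N-MYC peak, all but that of the outer Cdkn2c start, and in 0 of the 5 without. Of all promoters with N-MYC within 1 kb 23.8% held it, against 6.38% of those without. The split was not particular to N-MYC: CACGCG lay in 3 of 5 member promoters with p300 and 0 of 4 without, in 3 of 6 with H3K27ac and 0 of 3 without, and in 3 of 7 with H3K4me3 and 0 of 2 without. Over all promoters it lay in 20.4% of those with EZH2 against 5.46% of those without, and in 19.1% with H3K4me3 against 4.76% without. Promoters with N-MYC also held more CG dinucleotides over all genes (median 25 against 6), and the part of CG content in these counts was not tested. Both strands were searched, and no CACGTG or CACGCG match overlapped a match of another motif.

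The p53 consensus, taken as a pair of 10-base sites that are 0 to 13 bases apart, matched 10 of the 21263 promoters (0.047%), among them that of the outer Cdkn1a start, 73 bases upstream of it. This motif was searched after the sequence had been read. The sites of the marked match are not adjacent to each other. The bases right after it, tgacatgttc, differ from such a 10-base site at the first base alone and were not marked. Which of these bases p53 binds was not tested. GGGCGG, the GC box, occurred in 7 of the 9 member promoters (46.2% of all promoters), all but the inner Cdkn2c and outer Cdkn1a starts, and TTTNNCGC, an E2F-like motif, occurred in both Cdkn2a promoters (6.24% of all promoters).

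The genes whose levels over the 7 lists were most like those of a member were found by the Euclidean distance of log2(fold enrichment + 1). The nearest to Cdkn2a were Evl (distance 0.911) and Glcci1 (1.07), both with peaks of all 7 lists. Those nearest to Cdkn2b were Spred3 (0.219) and Cttnbp2nl (0.317), and those nearest to Cdkn1a were Ncs1 (0.419) and Ckb (0.423). Cdkn2c lay closest to Kdm3b (0.208) and Aggf1 (0.216), Cdkn2d to Mtr (0.158) and Otub1 (0.231), and among the genes close to Cdkn1b was Ppp2r5a (0.205). Distances were larger for Cdkn2a and Cdkn1a than for the active members, while the 0.219 of Cdkn2b lay between the 0.158 and 0.231 of Cdkn2d. What sets these distances was not tested.

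Of 35 further genes of the pathway, 32 had EZH2 at a start (45.8% of all genes), 28 N-MYC (32.9%), 32 p300 (39.3%), 33 H3K27ac (51.6%) and 32 H3K4me3 (51.0%). H3K27me3 was called at 7 of the 35 and SUZ12 at 4, shares near those of all genes (25.8 and 13.7%). Among 17 kinases, cyclins, pocket proteins and E2F factors that act below the inhibitors, all 17 had EZH2, 14 N-MYC and 16 H3K4me3. Ccnd1, for cyclin D1, was the 1 without H3K4me3, with EZH2 (11), SUZ12 (9.65) and H3K27me3 (10.3) and no active mark, while Ccnd2 (cyclin D2) carried H3K4me3 of 42.1 and N-MYC of 10.3 with a weak H3K27me3 peak (4.2). Ccna2 (cyclin A2) likewise had a weak H3K27me3 peak (4.69) beside H3K4me3 of 35.4. All 4 genes of the ARF and p53 arm (Mdm2, Mdm4, Trp53 and Npm1) had N-MYC, p300, H3K27ac and H3K4me3 without SUZ12 or H3K27me3. The same held for all 5 genes for subunits of ubiquitin ligases that act on p27 or on cyclin E (Skp2, Cks1b, Skp1, Cul1 and Fbxw7).

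Of 9 known regulators of the Ink4 locus, 8 had H3K27ac (51.6% of all genes), 7 H3K4me3 (51.0%) and 7 p300 (39.3%). EZH2 was called at 7 (45.8%), N-MYC at 5 (32.9%), H3K27me3 at 4 (25.8%) and SUZ12 at 3 (13.7%). The genes named here are those with SUZ12 or H3K27me3 or without H3K4me3. Bmi1 and Cbx7, subunits of Polycomb complex PRC1, had peaks of all 7 lists, as Cdkn2a did: at Bmi1 EZH2 reached 25.5 and SUZ12 16.5 beside H3K27ac of 24.1, and at Cbx7 EZH2 reached 5.50 and H3K27me3 11.4. Id1, an inhibitor of ETS and E-box factors, had EZH2 (13.9), SUZ12 (12) and H3K27me3 (21.7) alone. Kdm6b, an H3K27 demethylase, had H3K27me3 (9.86) with H3K27ac (16.9), p300 (6.30) and H3K4me3 (4.51) and no EZH2. Ets1 had H3K27ac (5.25) and no other peak at a listed start.

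The lists held between 9798 (N-MYC) and 123056 (H3K27me3) peaks, and read depth is not given in the files. H3K4me3 and H3K27ac, called at 51.0 and 51.6% of all genes, were called at all 8 T-cell markers read (among them Cd3e, Lck and Bcl11b). H3K4me3 was called at 1 of 5 B-cell, 1 of 5 myeloid and 1 of 5 thymic epithelial or stromal markers, and H3K27ac at 2, 3 and 2 of them. Cd79a, Cebpa and Epcam were those with H3K4me3, and the myeloid factor gene Spi1 had H3K27ac of 19.8. N-MYC and p300 had 0 peaks at these 15 markers (32.9 and 39.3% of all genes). The part of other cells in the calls at the CDK inhibitor genes was not tested.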

How the data were processed

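Peak lists of 7 immunoprecipitations, 1 library each, were used as deposited. Per the labels, peaks are on mm10 (GRCm38), and the submitters' processing notes name FastQC, Bowtie2, SAMtools, MACS2 and deepTools, with no version. Filters, pooling and use of the inputs are not given in the sources used here. The deposited files hold, per peak, the fold enrichment (a linear ratio by the authors), the p-value and q-value as −log10, and a score deposited by the authors, equal to 10 times the −log10 q with decimals dropped, which entered no result. The summit is an offset in bases. The smallest −log10 q ran from 2.0 to 2.08.

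With Python 3.11.15, numpy 2.4.6 and pandas 2.3.3, peaks overlapping by at least 1 bp the window of 1 kb around each RefSeq start (17492 genes), or around both ends of a gene without a listed start (4395 genes), were called, and the overlap, cover and joining steps were tested on simulated data. Exon structure was not used here. The members, pathway lists and motifs were chosen with earlier results of these data known. Named genes were the 7 members, the 2 nearest genes of each member with peaks in at least 4 lists (1 of those of Cdkn1b is not reported here), and pathway genes without H3K4me3 or with SUZ12 or H3K27me3. Alternatives changed the window, threshold, list length, starts and domain. Depth is unknown.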

Additional observations from a re-analysis of the deposited data

How the results depend on the processing

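The counts of member genes stayed within 1.5 times the reported count in all 72 alternatives, and the member genes were the same in 51 of them. A fall from 3 genes to 2 stays within this limit. H3K4me3 together with H3K27me3 fell from 3 genes to 2 in this way. Cdkn2a was lost when the summit had to lie in the window, Cdkn2b in lists of equal length and Cdkn1a with 1 start per gene. The alternative that leaves out Cdkn1c, read at both ends, was chosen after seeing the data. When the summit had to lie in the window, Cdkn2a lost H3K27me3 and Cdkn2d lost H3K27ac. For the cover of the Cdkn2a-Cdkn2b domain, 18 of 28 alternatives left the 95% Wilson interval over bases, which is narrow and covers no variation between tumours. At a q-value of at most 1e-05 cover was 50.9% for EZH2, 66.6% for SUZ12 and 0% for p300 and H3K27ac. At a fold enrichment of at least 4 it was 53.8% for EZH2, 60.9% for SUZ12 and 0% for p300 and H3K27ac. With peaks within 3 kb merged it was 79.5% for EZH2, 89.1% for SUZ12 and 100% for H3K27me3. With 10 kb on either side EZH2 covered 40.9%, SUZ12 covered 52.1% and H3K27me3 covered 83.5%, while the active lists covered 5.88% (H3K4me3), 0.829% (H3K27ac), 0.803% (p300) and 1.03% (N-MYC). No paired analysis was possible because each antibody had 1 library and no test was made. Depth is unknown, so what it limits could not be given.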
